A study of Saccharomyces cerevisiae with 6 samples.

Results

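Cytochrome c oxidase, or complex IV, is the terminal enzyme of the mitochondrial respiratory chain: it takes electrons from cytochrome c, passes them to oxygen and pumps protons across the inner membrane. Its catalytic core is made inside mitochondria from mitochondrial DNA, and a set of small subunits encoded in the nucleus is imported and built around it. In yeast the genes of these subunits are activated by the Hap2/3/4/5 complex during respiratory growth, and their transcripts are low when glucose is plentiful. The transcripts described here are those of 7 nuclear genes, COX4, COX6, COX7, COX8, COX9, COX12 and COX13, chosen by symbol as complex IV subunits without the oxygen-regulated COX5 pair. All 7 were measured, among 5449 genes in all, each by 1 probe set of its own that the array's naming does not mark as able to cross-hybridize.

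RNA came from Saccharomyces cerevisiae VTT C-10883 grown in chemostats without oxygen, so both groups shared the strain and the anaerobic culture. Of 6 cultures, 3 had no inhibitors and 3 were switched to a feed with 5-hydroxymethylfurfural (HMF) and furfural, aldehydes that form when plant sugars break down. The labels call the 3 cultures of a group biological replicates and give both groups the same protocol text, so the treatment label alone separates them. Neither the strain's genotype nor the aldehyde concentrations, the sampling time or the growth rate of the cultures is stated in the labels. Each culture was read on 1 Affymetrix array as log2 signals normalized by the authors with GCRMA. With 6 arrays, their number limits the precision. The median SD within groups was 0.053 over all genes, and the correlation between 2 arrays over all genes was 0.9983 to 0.9992 in the same group and 0.9892 to 0.9936 in different groups. All 7 genes lay far above the background level of 2.22 on all 6 arrays, with signals from 9.86 to 10.72. A signal also depends on its probes, so levels are not ranked between genes here.

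The comparison set cultures fed HMF and furfural against cultures fed neither. COX6, COX7, COX8 and COX12 were lower with inhibitors, to between 0.813 and 0.907 times their level without them. COX4, COX9 and COX13 were not called, and none of the 7 was called higher. The 4 genes make up 57.1% of the members, while 22.3% of all genes tested were called lower, 19.9% higher and 42.2% in either direction. The same 4 genes were those whose groups did not overlap, with every inhibitor array below every array without inhibitors, which was so for 29.3% of all genes (the reverse held for 26.1%, and either for 55.4%). The median log2 fold change was -0.14 over the 7 genes and -0.0068 over all genes. A call is an adjusted p under 0.05 in limma's moderated test, two-sided, with Benjamini-Hochberg adjustment over all 5449 genes, and every adjusted p given for a gene is of this kind (3 arrays against 3). Each array reads RNA pooled from a whole culture, so less transcript in each cell and fewer cells with the transcript cannot be told apart.

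**Figure D1:**
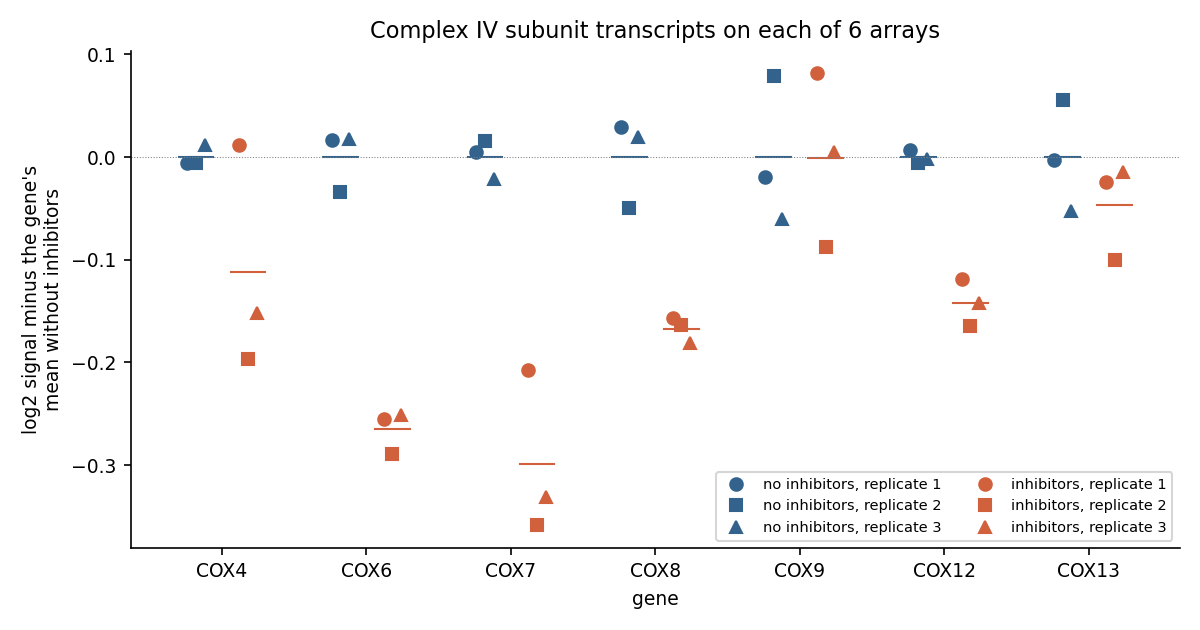
Log2 signal of each of the 7 genes on each of the 6 arrays, less that gene's mean over the 3 arrays without inhibitors (vertical axis); colours mark the groups, shapes the replicate number and short lines the group means. The orange points of COX6, COX7, COX8 and COX12 all lie below the blue points of the same gene, while those of COX4, COX9 and COX13 overlap with them.

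Cox4 and Cox6 sit on the matrix side of the enzyme. COX6 gave log2 signals of 10.36, 10.31 and 10.36 without inhibitors and 10.09, 10.06 and 10.09 with them. Each group spanned a narrow range, and the lowest array without inhibitors stood 0.22 above the highest with them. COX6 fell by 0.26 on the log2 scale (SE 0.024, 95% interval -0.33 to -0.20, adjusted p = 0.00131), which puts 11.6% of all genes below it. COX4, the gene of a zinc-binding subunit, gave 10.09, 10.09 and 10.11 without inhibitors and 10.11, 9.90 and 9.95 with them. Inhibitor replicates 2 and 3 were below all arrays without inhibitors, but replicate 1 lay among them. COX4 differed between groups by -0.11 (SE 0.057, 95% interval -0.26 to 0.03, adjusted p = 0.171). Without inhibitor replicate 1 it was -0.17 with an adjusted p of 0.00888 in limma, so this 1 array set whether COX4 was called.

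Cox7, Cox8, Cox9 and Cox13 each cross the inner membrane. COX7 gave 10.51, 10.52 and 10.48 without inhibitors against 10.30, 10.14 and 10.17 with them. Replicate 1 was the highest of the inhibitor arrays and still lay below every array of the other group. COX7 fell by 0.30 (SE 0.044, 95% interval -0.41 to -0.19, adjusted p = 0.00516), more than any other of the 7 by its estimate. COX8 gave 10.07, 9.99 and 10.06 without inhibitors and 9.88, 9.88 and 9.86 with them. Its inhibitor arrays were nearly equal, with an SD of 0.012. COX8 fell by 0.17 (SE 0.028, 95% interval -0.24 to -0.10, adjusted p = 0.00734).

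COX9 gave 10.62, 10.72 and 10.58 without inhibitors and 10.72, 10.55 and 10.64 with them. The groups covered nearly the same range. Its log2 fold change was -0.0005 (SE 0.058, 95% interval -0.14 to 0.14, adjusted p = 1), so a fall as large as that estimated for COX7 lies outside the interval. COX13, the counterpart of mammalian COX6A, gave 10.54, 10.60 and 10.49 against 10.52, 10.45 and 10.53. Inhibitor replicate 2 was the lowest array of all, and the other inhibitor arrays fell within the range without inhibitors. Its log2 fold change was -0.05 (SE 0.039, 95% interval -0.15 to 0.05, adjusted p = 0.384).

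Cox12 faces the intermembrane space, the side on which cytochrome c docks. COX12 gave 10.53, 10.52 and 10.52 without inhibitors and 10.41, 10.36 and 10.38 with them. Its SD without inhibitors, 0.0066, was the smallest of any of the 7 genes in either group, and the gap between the groups was 0.11. COX12 fell by 0.14 (SE 0.020, 95% interval -0.19 to -0.09, adjusted p = 0.0047). The other within-group SDs of the 7 genes reached 0.11, in COX4 with inhibitors.

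The genes thus differed in their estimates, and the difference itself was tested for all 21 pairs, as the change in the log2 ratio of 2 genes, by a two-sided exact permutation test over the 6 arrays. With 3 arrays against 3 that test cannot give less than 0.1. Of the 12 pairs of a called and an uncalled gene, 7 reached this value: COX6 and COX7 against each of COX4, COX9 and COX13, and COX12 against COX13. In these 7 pairs the ratios of the groups did not overlap. The calls came from the same 6 arrays, so this split of the pairs is not independent of the test. For single genes, the groups did not overlap in 55.4% of all genes, and the share over ratios of other gene pairs was not computed. The change of COX7 was 0.30 below that of COX9, and the change of COX6 was 0.15 below that of COX4. Over all 21 pairs 11 reached 0.1, and the smallest adjusted p was 0.191, so no pair passed the threshold. COX8 against COX9, with a difference of -0.17, had an exact permutation p of 0.2.

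The inhibitor arrays differed among themselves in a way that most of the 7 genes shared. Replicate 2 was the lowest inhibitor array for 6 of the 7 genes, and replicate 1 was the highest for 5. The shares of all genes with these orders were not computed. Averaged over the 7 genes, log2 signals centred on each gene's own mean were 0.08, 0.08 and 0.06 without inhibitors and -0.02, -0.12 and -0.08 with them. The averages over all genes, in which rises and falls offset each other, lay between -0.024 and 0.023. The ATP synthase genes had the same order, with -0.05 in inhibitor replicate 1, -0.12 in replicate 2 and -0.11 in replicate 3. So did the cytochrome bc1, heme A and COX5 lists described below. Other lists did not. Replicate 1 was the lowest for genes of copper delivery (-0.09), Cox2 insertion (-0.09) and translational activation (-0.08). Replicate 3 was the lowest for the cytochrome c genes (-0.30), the other assembly chaperones (-0.04) and the Hap regulators (-0.05). It was the highest for RCF1 and RCF2 (0.12). limma's array weights, which score how closely an array follows the fit over all genes, were lowest for inhibitor replicate 1, at 0.56, and highest for replicate 2, at 1.65. The part of array quality in the spread was not tested.

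The remaining subunits were considered next. The core subunits encoded in mitochondrial DNA, COX1, COX2 and COX3, and the small subunit gene COX26 were not analysed here. COX5A and COX5B encode alternative forms of 1 subunit, the first made with oxygen and the second when oxygen is short. COX5B gave 8.44, 8.43 and 8.36 without inhibitors and 8.16, 8.16 and 8.26 with them, without overlap. It fell by 0.22 (SE 0.037, adjusted p = 0.00828). COX5A overlapped between groups, with a difference of -0.03 (SE 0.061, adjusted p = 0.694).

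Cytochrome c, which feeds electrons to the enzyme, also has alternative forms. CYC7, the minor form that is favoured under low oxygen, gave 8.36, 8.36 and 8.51 without inhibitors and 7.63, 7.42 and 7.52 with them. The gap of 0.72 between its groups was far wider than its SDs of 0.08 and 0.11. CYC7 fell by 0.88 on the log2 scale (SE 0.069, 95% interval -1.05 to -0.71, adjusted p = 0.000902). That interval lies wholly below those of the 7 subunits. CYC1, the major form, differed by -0.19 (SE 0.076, adjusted p = 0.0988), and without inhibitor replicate 1 it was -0.25 with an adjusted p of 0.0475 in limma. CYC3, which attaches heme to cytochrome c, fell by 0.29 (adjusted p = 0.0351), a call lost without any 1 of the arrays other than inhibitor replicate 1 (adjusted p from 0.0634 to 0.0998 in limma).

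**Figure D2:**
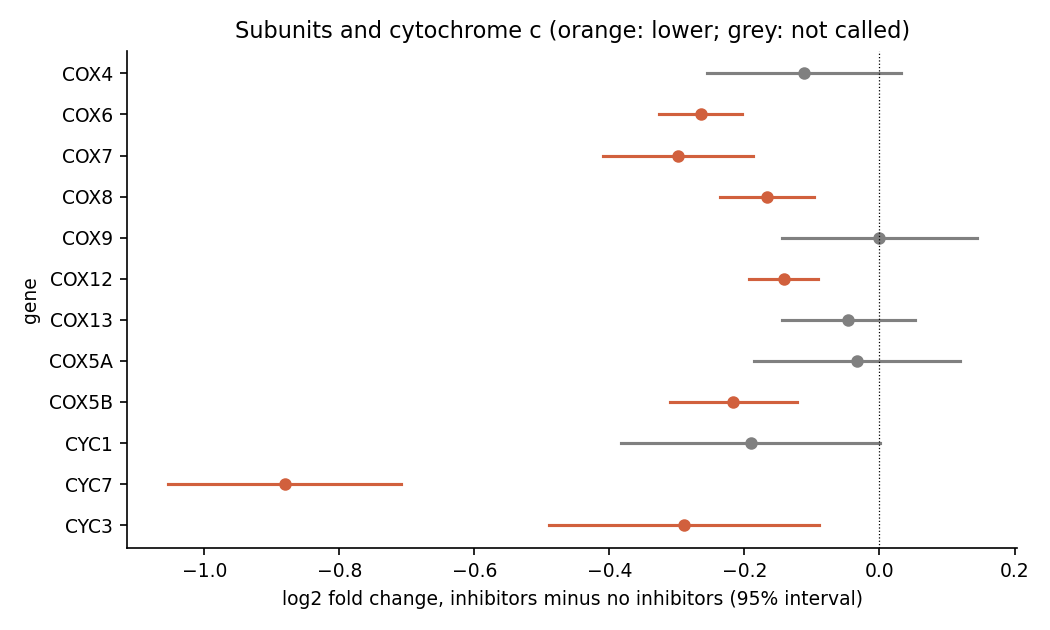
Log2 fold change, inhibitors minus no inhibitors (horizontal axis), with its 95% interval from limma for the 7 genes, the COX5 pair and the cytochrome c genes; orange marks genes called lower and grey those not called. The intervals of COX4, COX9 and COX13 include 0, and CYC7 at -0.88 stands far to the left of all others.

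Assembly of complex IV needs many proteins that are not part of the finished enzyme. Of 37 measured assembly genes in 5 lists, 11 fell, 1 rose and 25 were not called, with a median log2 fold change of -0.07. The share that fell was 29.7%, against 22.3% of all genes tested. Its largest falls by estimate were those of YAH1, COA6 and SCO1. Among 11 copper delivery genes 4 (36.4%) fell and none rose, with a median of -0.12. COA6 gave 8.12, 8.19 and 8.19 without inhibitors against 7.79, 7.66 and 7.75, and fell by 0.43 (SE 0.042, adjusted p = 0.0016). SCO1, which passes copper to Cox2, gave 7.44, 7.37 and 7.43 against 6.98, 6.99 and 7.05, and fell by 0.41 (SE 0.032, adjusted p = 0.000914). Neither gene's groups overlapped, and the gaps between them were 0.33 and 0.32. COX11, needed for the copper site of Cox1, fell by 0.32 and PET191 by 0.19 (adjusted p = 0.00495 and 0.00311). The other 7 had log2 fold changes from -0.14 to 0.04, among them SCO2, the paralogue of SCO1, at 0.04 (adjusted p = 0.458), and the copper chaperone gene COX17 at -0.07 (adjusted p = 0.458).

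Heme A, the form of heme found in complex IV, is made from heme B by way of heme O. COX10, the gene of the first of these enzymes, gave 7.12, 7.06 and 7.11 without inhibitors and 6.84, 6.75 and 6.76 with them. It fell by 0.31 (SE 0.034, adjusted p = 0.00209). YAH1, a mitochondrial ferredoxin gene that also serves iron-sulfur cluster synthesis, fell by 0.43 (SE 0.038, adjusted p = 0.00113). COX15, the gene of the next enzyme, differed by -0.006 (SE 0.066, adjusted p = 0.96), and ARH1, the ferredoxin reductase gene, by -0.04 (adjusted p = 0.659). Of this list of 4, COX10 and YAH1 were thus called (50%, against 22.3% of all genes called lower), and the list's median was -0.17.

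Among 8 genes for inserting and processing Cox2, 3 fell and 1 rose (37.5% and 12.5%, against 22.3% and 19.9% of all genes). COX20, a chaperone of newly made Cox2, gave 7.88, 7.90 and 7.86 against 7.54, 7.58 and 7.57 and fell by 0.32 (SE 0.022, adjusted p = 0.000639). COX18, which moves the tail of Cox2 across the membrane, fell by 0.21 (adjusted p = 0.00212). SOM1, a component of the inner membrane peptidase, fell by 0.24 (adjusted p = 0.0112), whereas IMP1, a catalytic subunit of that peptidase, rose by 0.21 (adjusted p = 0.0202). The rise of IMP1 no longer passed when replicate 2 of either group was left out (adjusted p = 0.0561 and 0.0624 in limma). OXA1, the general insertase gene, differed by -0.05 (adjusted p = 0.266).

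Of 6 translational activators of the mitochondrial COX transcripts, MSS51, which acts on that of COX1, was the only one called. That is 16.7% of the list, below the 22.3% of all genes called lower. MSS51 fell by 0.14 (adjusted p = 0.0178), which did not pass when replicate 1 or 3 of the cultures without inhibitors, or 2 or 3 of those with them, was left out (adjusted p = 0.055 to 0.0589 in limma). PET122 lay at 2.25 on all 6 arrays, just above the floor of the values, so a change in it could not be seen. Of 8 other assembly chaperones, COA1 fell by 0.24 (SE 0.032, adjusted p = 0.00401) and the other 7 were not called, with log2 fold changes from -0.14 in SHY1 to 0.09 in PET100. The share of these chaperones that fell, 12.5%, was also below that of all genes. The call count of that list became 2 lower without no-inhibitor replicate 2, and 1 gene was called higher without inhibitor replicate 1.

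RCF1 and RCF2 encode proteins that bind complex IV within respiratory supercomplexes. RCF2 gave 9.36, 9.35 and 9.29 without inhibitors and 9.77, 9.71 and 9.75 with them. It rose by 0.41 (SE 0.028, 95% interval 0.33 to 0.48, adjusted p = 0.000666), opposite in direction to the 4 subunit genes that fell. RCF1 differed by -0.01 (SE 0.032, adjusted p = 0.747).

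**Figure D3:**
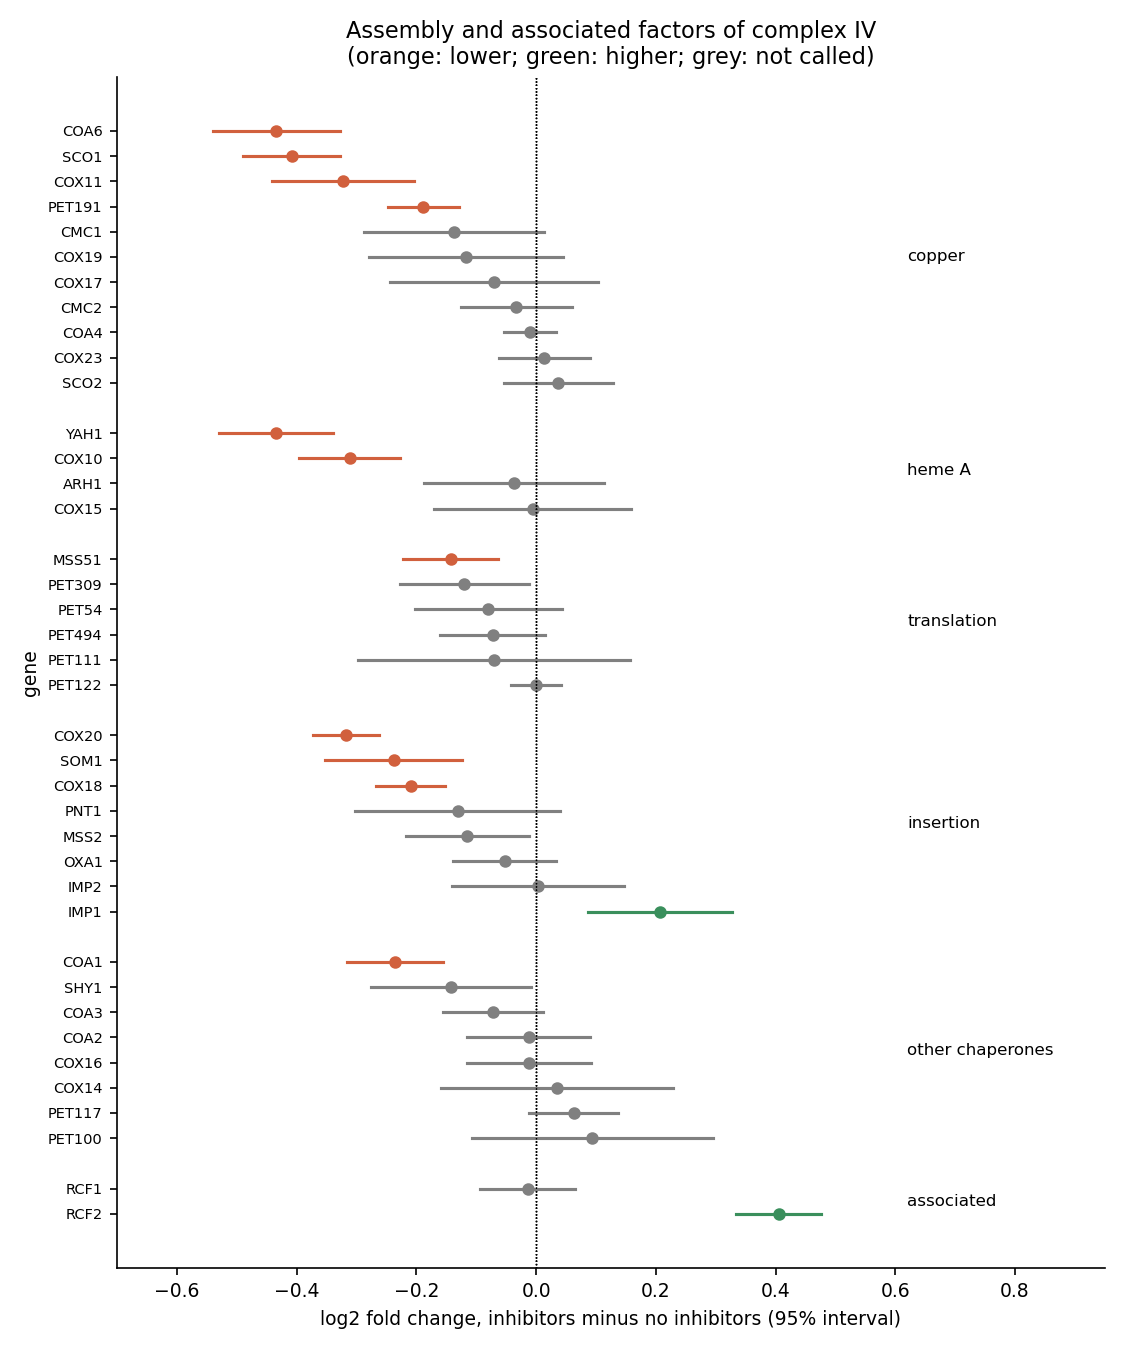
Log2 fold change, inhibitors minus no inhibitors (horizontal axis), with its 95% interval from limma for 37 assembly genes and the associated genes RCF1 and RCF2, grouped by role (vertical axis); orange marks genes called lower, green those called higher and grey those not called. COA6, SCO1 and YAH1 lie farthest to the left at -0.41 to -0.43, and RCF2 lies farthest to the right at 0.41.

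Among the regulators, HAP4, the activating subunit that sets the activity of the Hap complex, gave 8.78, 8.78 and 8.80 without inhibitors and 8.54, 8.59 and 8.50 with them. It fell by 0.25 (SE 0.028, 95% interval -0.32 to -0.18, adjusted p = 0.00221), and its groups did not overlap. HAP3, a DNA-binding subunit, rose by 0.18 (adjusted p = 0.0414), a call lost without any 1 array other than no-inhibitor replicate 2 (adjusted p = 0.0614 to 0.111 in limma). HAP1, the heme-responsive activator gene, differed by 0.08 (adjusted p = 0.115). HAP2 and HAP5 differed by -0.17 and -0.11 (adjusted p = 0.105 and 0.11), and without inhibitor replicate 1 the list of 5 had 2 genes called lower in place of 1 (3 with limma's array weights). The main fit called 20% of this list lower and 20% higher, near the 22.3% and 19.9% of all genes.

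The complexes next to complex IV in the chain were compared side by side. Of 9 cytochrome bc1 genes, which pass electrons to cytochrome c, 7 fell and none rose, with a median log2 fold change of -0.25. The share that fell was 77.8%, while 22.3% of all genes tested were called lower and 19.9% higher. QCR2 and COR1, the large core proteins, fell by 0.47 and 0.37 (adjusted p = 0.00237 and 0.00278). CYT1, the cytochrome c1 gene, fell by 0.31, and QCR9 by 0.28 (adjusted p = 0.00596 and 0.00351). Of 14 ATP synthase genes 9 (64.3%) fell and none was called higher, with a median of -0.23. The groups of ATP14 and ATP16 did not overlap, with the inhibitor arrays higher (0.13 and 0.08, adjusted p = 0.058 and 0.105), as held for 26.1% of all genes. In the ATP synthase list, 1 gene was called higher without inhibitor replicate 2 or with an intensity trend and robust prior variance. TIM11 and ATP19, genes of subunits tied to its dimeric form, had log2 fold changes of -0.45 and -0.44 (adjusted p = 0.000479 and 0.00152). ATP2 and ATP3, of the catalytic part, fell by 0.34 and 0.24 (adjusted p = 0.00511 and 0.00324). The median of the 7 complex IV genes, -0.14, was nearer to 0 than either, and the largest fall among them, 0.30, was smaller than those of QCR2, COR1 and CYT1. Whether the lists differ was not tested.

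**Figure D4:**
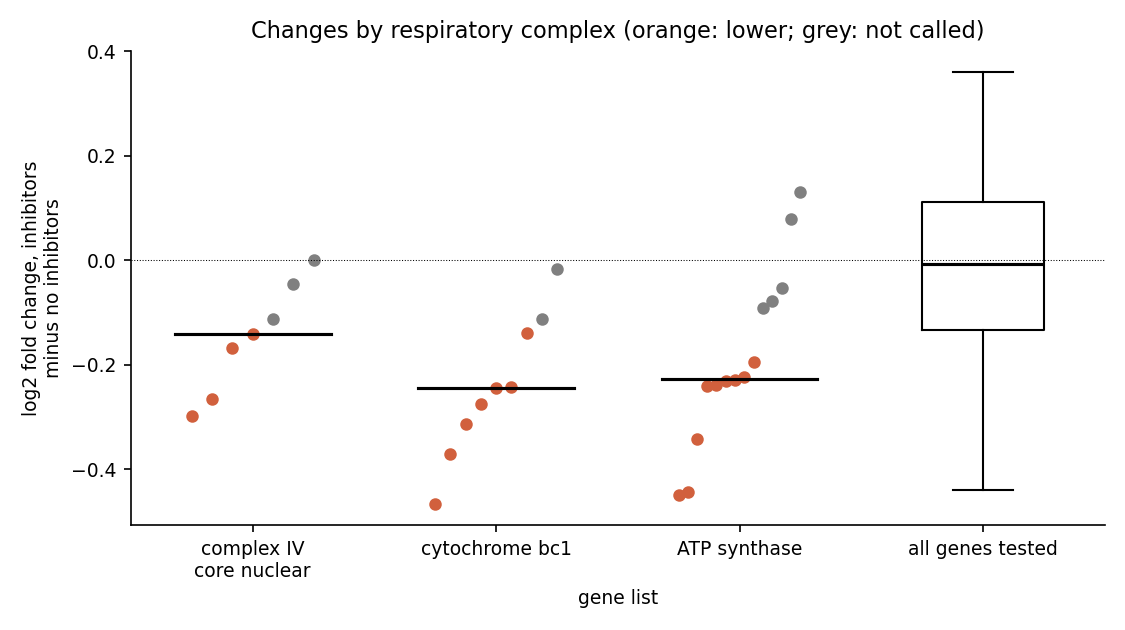
Log2 fold change, inhibitors minus no inhibitors (vertical axis), of each gene of 3 complexes, with bars at the medians of -0.14, -0.25 and -0.23; orange marks genes called lower and grey those not called. The box shows all 5449 genes, with its line at the median of -0.0068, edges at the 25th and 75th percentiles (-0.13 and 0.11) and whiskers at the 5th and 95th (-0.44 and 0.36).

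The 7 genes lie on 5 chromosomes, and COX4 and COX13 are separated by 3 protein-coding genes on chromosome VII in the RefSeq gene order of assembly R64. That table served for gene order alone. Of their 14 immediate neighbours, all measured, 3 were called lower and none higher, a share of 21.4% against 22.3% of all genes. These were TPN1 beside COX4 (-0.27, adjusted p = 0.00385), CST9 beside COX8 (-0.19, adjusted p = 0.0218) and IDP1, a mitochondrial isocitrate dehydrogenase gene, beside COX9 (-0.14, adjusted p = 0.0218). CST9 and IDP1 no longer passed when replicate 1 or 3 of the cultures without inhibitors, or replicate 3 with them, was left out, nor did IDP1 without inhibitor replicate 2 (adjusted p = 0.0539 to 0.069 in limma). The neighbours of COX6, COX7, COX12 and COX13 were not called, and IME4 beside COX13 lay above background on only 2 of the 6 arrays.

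To see which transcripts followed the 7 genes most closely, each of 5339 other genes above background was compared with the mean centred profile of the 7 over the 6 arrays. That filter removed few genes, since 5346 of all 5449 lay above background on all 6 arrays. The closest, by root mean square difference in log2 signal, were CBR1, a cytochrome b5 reductase gene (0.0106), MRL1 (0.0125), GPI14 (0.0139), the bc1 subunit gene QCR6 (0.0151) and PRS5 (0.016). The median over all genes compared was 0.111. Of the 7 genes themselves COX12 was nearest to their mean, at 0.0172, and COX9 farthest, at 0.0846. The 5 genes had log2 fold changes from -0.17 to -0.14. The profile used to choose them holds the group difference, so falls of about this size follow from the choice and are no separate result. QCR6 fell by 0.14 (adjusted p = 0.0354), a call lost without any 1 array other than inhibitor replicate 1 (adjusted p = 0.0562 to 0.101 in limma).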

How the data were processed

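The values are log2 signals per probe set, deposited by the authors, 1 column per array. The tools named per the submitters' processing notes are GCRMA and limma, without versions or settings. GCRMA adjusts for background from the base content of each probe and then normalizes the arrays together, which gives dim probe sets a floor (here 2.21) and shrinks changes near it. No further normalization was applied.

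Of 10762 probe sets, the platform annotation gave 1 gene to 7244, several to 1 and none to 3517. Matching gene IDs to the RefSeq table of assembly R64 put 5498 in S. cerevisiae (5449 genes, 12 renamed) and left 1746 fission yeast probe sets, whose 95th percentile on each array is the background level. For 47 genes with several probe sets, the set with the highest mean was used. limma 3.58.1 under R 4.3.3 fitted group as the single factor, and the fit was checked on simulated data. The members, lists and tests were chosen with earlier results of these data known. Named genes were the members, the COX5 pair, CYC1, CYC7, HAP1, HAP4, up to 4 called genes of each other list by size whose groups did not overlap, and the 5 genes nearest in profile. Neighbouring genes, the pairwise tests and some uncalled list members were added after values were seen. Same-numbered replicates did not deviate together (r = -0.248 to -0.199 between deviations from group means), so the number was not treated as a pairing. Alternatives covered normalization, centring, array weights, a filter on dim genes, the prior variance, a block for replicate number, probe sets, the threshold and leaving out each array. Promoter and protein sequences are not shown. Figures used matplotlib 3.10.9.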

Additional observations from a re-analysis of the deposited data

How the results depend on the processing

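The 4 falls of COX6, COX7, COX8 and COX12 held under all 15 alternatives, with an adjusted p in limma of at most 0.038, and no named gene that was called changed sign. COX9 lay on both sides of 0 (-0.04 to 0.04), as did COX5A. Of all genes, an adjusted p under 0.01 left 608 higher and 582 lower, as a stricter threshold must. With the replicate number as a block, limma called 774 genes higher and 810 lower and the same number of members, 4, but among named genes COX5B, HAP3, QCR6, MRL1, CST9 and IDP1 were lost (adjusted p = 0.0506 to 0.0848) and CYC1 was called (adjusted p = 0.0215). The numbers share no known origin. An array's deviations from its group mean correlated negatively with those of the other group's array of the same number (r = -0.248 to -0.199). For arrays of different numbers r was 0.0457 to 0.176. Rises outnumbered falls at the stricter threshold, after quantile normalization (1252 against 1125) and when no-inhibitor replicate 1 was dropped (937 against 868). Leaving out 1 array at a time gave 855 to 1023 genes higher, 868 to 1117 lower and 4 to 5 members lower, with a median of the members from -0.17 to -0.13. Centring the arrays on their medians called 2 of the other assembly chaperones lower in place of 1. The median log2 fold change of all genes was -0.0068, 0.0053 after quantile normalization and -0.0122 with the arrays centred on their medians. With 3 arrays a group, changes in genes such as COX4 and COX13 could not be told from 0.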
